A study of Mus musculus with 10 samples.

Results

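Intercalated disc adhesion genes were examined in right atria from 2 groups of mice, labelled control and Tbx5 mutant. They were taken from the deposited gene table by their symbols. The 10 genes are Dsg2, Dsc2, Dsp, Pkp2 and Jup of the desmosome, Cdh2 and Ctnna3 of the cadherin and catenin complex, Tjp1, and the Xin repeat genes Xirp1 and Xirp2. All 10 were among the 23337 genes of the table and had enough reads to be tested, as did 13084 genes in all. Of the mice, 4 were labelled control and 6 Tbx5 mutant, each giving 1 library. All 10 mice were of mixed strain and, by their labels, 8 to 10 weeks old, while the tissue protocol gives 6 to 8 weeks. In the mice labelled Tbx5 mutant, exon 3 of Tbx5 was to be deleted by a Cre that tamoxifen activates. The Cre is expressed from R26, which is active in all cell types, so that the deletion is not limited to cardiomyocytes. Tamoxifen was injected for 3 days at 0.167 mg per day, and the atria were taken 1 week later. The labels of the control mice give no Cre allele, Tbx5 allele or treatment of their own, so whether they carried the Cre or received tamoxifen cannot be read from the labels. In left atrial libraries of the same study, mutant mice were Tbx5 fl/fl;R26CreERt2 and controls carried R26CreERt2 alone.

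The intercalated disc is the end-to-end contact between cardiomyocytes. Desmosomes anchor it to the desmin filaments, adherens junctions anchor it to actin through cadherins and catenins, and in the mammalian heart both kinds of junction are mixed in a shared structure called the area composita. Inherited variants of several desmosomal genes cause arrhythmogenic cardiomyopathy. Tbx5 is a T-box transcription factor of atrial cardiomyocytes.

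Each library held between 5703775 and 7095141 counted reads, and the 10 genes had between 246 and 8134 reads in a library. Values are given as CPM, which is the count of a gene scaled to the TMM-adjusted library size. For Tbx5 itself, control libraries held 1195 to 1505 reads and mutant libraries 1010 to 3524, and its mean was 205 ± 17.8 CPM (SD, n = 4) against 394 ± 83.3 CPM (SD, n = 6). Whole-gene counts do not tell transcripts with exon 3 from those without it, so this level does not check the deletion, and the groups are named here by their labels. Xist and Ddx3y went against the sex labels of all 4 control mice, and matched those of all 6 mice labelled Tbx5 mutant. In mutant M3, 38.9% of the reads were assigned to the ribosomal precursor Rn45s, against 0.268 to 1.49% in the other libraries, and 3484550 reads were left outside it. Over the 11900 tested genes with a known transcript length, the log2 fold change fell with length, with a Spearman correlation of -0.326 across genes, which are not independent replicates.

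The adhesion genes moved in both directions between the groups. A gene was called when its adjusted p was under 0.05 in the edgeR quasi-likelihood test, its fold change was over 1.5 and its mean normalized value in the mice labelled control was over 1. Of the 10 genes, 5 were called, against 15.7% of the 13084 genes tested. Dsc2, Dsg2 and Ctnna3 fell in the mutant mice, where 7.16% of all tested genes were called lower. Pkp2 and Xirp1 rose, where 8.50% were called higher. With no fold threshold, Tjp1 was also lower and Cdh2 also higher, which made 4 genes lower and 3 higher of 10, against 15.0% lower, 16.3% higher and 31.3% in all of the tested genes. For the same 7 genes the values of the groups did not overlap, as for 22.7% of all tested genes. The median log2 fold change of the 10 genes was -0.54, beside -0.005 over all tested genes, and with the trend of each library on transcript length removed it was -0.32, beside -0.005. In whole atrial tissue, fewer cells of a type and less RNA per cell cannot be told apart.

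**Figure D1:**
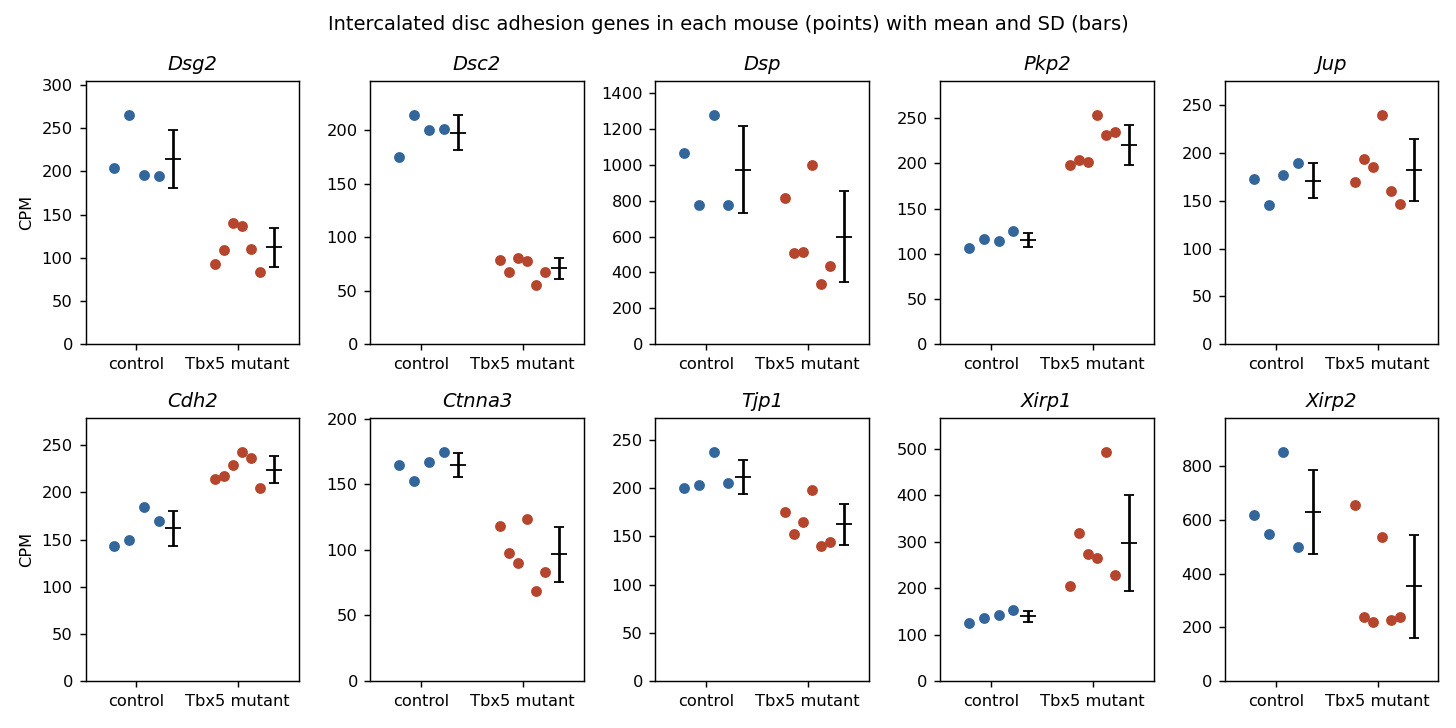
Level of each of the 10 genes in CPM (vertical axis, from 0) in every mouse labelled control (blue, n = 4) and Tbx5 mutant (red, n = 6), with the mean and SD of each group as a black bar. The groups do not overlap for Dsg2, Dsc2, Pkp2, Cdh2, Ctnna3, Tjp1 and Xirp1, while Dsp and Xirp2 each have 2 mutant mice among the control values.

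Both desmosomal cadherins were lower. Dsc2 encodes desmocollin 2, a membrane-spanning cadherin that binds its partners on the neighboring cell. Its level in the mice labelled control was 174.7 CPM in M1, 213.6 in M2, 199.7 in F1 and 201.0 in F2. Among the 6 mutant mice the lowest level was 54.9, the median 72.76 and the highest 80.28 CPM. Every mutant mouse was therefore below every control mouse, and the highest mutant level was less than the lowest control level by more than the range within either group. The mean fell from 197 ± 16.3 CPM (SD, n = 4) to 71.0 ± 9.71 CPM (SD, n = 6), which was 2.78-fold lower. The log2 fold change was -1.47 with a standard error of 0.11 (edgeR adjusted p = 5.91e-07), and a two-sided exact permutation test over mice gave p = 0.00952, the smallest that 4 mice against 6 allow. Dsc2 had the largest log2 fold change, up or down, of the 10 genes.

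Dsg2 encodes desmoglein 2, the other cadherin of the cardiac desmosome. Its level in the mice labelled control was 204.3 CPM in M1, 264.7 in M2, 195.2 in F1 and 194.2 in F2. Mutant mice ran from 83.32 CPM through a median of 109.3 to 140.5 CPM. Control M2 was the highest mouse, and the groups did not overlap. The mean was 215 ± 33.7 CPM (SD, n = 4) against 112 ± 22.9 CPM (SD, n = 6), 1.91-fold lower, with a log2 fold change of -0.94 and a standard error of 0.15 (edgeR adjusted p = 0.000348). The exact permutation p was 0.00952. In the GENCODE M21 annotation of mouse build GRCm38, Dsg2 shares 330 exon bases with Gm16090 on the opposite strand, and whether reads were counted by strand is not given in the sources used here.

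Of the 3 plaque genes of the desmosome, Pkp2 was called, while Jup and Dsp missed the threshold. Pkp2 encodes plakophilin 2, an armadillo protein of the desmosomal plaque. Its level was 106.7 CPM in control M1, 116.3 in M2, 114.1 in F1 and 124.9 in F2, and in the mice labelled Tbx5 mutant it ran from 198.6 CPM through a median of 217.7 to 253.2 CPM. All 6 mutant mice were above all 4 control mice, and both groups were narrow. The mean rose from 116 ± 7.49 CPM (SD, n = 4) to 221 ± 22.4 CPM (SD, n = 6), a fold of 1.91, with a log2 fold change of 0.93 and a standard error of 0.10 (edgeR adjusted p = 1.54e-05, exact permutation p = 0.00952). Pkp2 lies on the forward strand of chromosome 16 (chr16:16213318-16272712, GRCm38), and its longest coding transcript has 13 exons.

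Jup encodes plakoglobin, the armadillo protein found in both desmosomes and adherens junctions. It measured 172.7 CPM in control M1, 145.3 in M2, 176.5 in F1 and 189.1 in F2, against a lowest level of 146.2, a median of 177.4 and a highest of 239.3 CPM in the mice labelled Tbx5 mutant. The groups overlapped over most of their range. The means of 171 ± 18.5 CPM (SD, n = 4) and 182 ± 32.7 CPM (SD, n = 6) differed by less than the spread between mice, with a log2 fold change of 0.094 and a standard error of 0.13 (edgeR adjusted p = 0.607, exact permutation p = 0.619). Its sign turned to -0.0096 without mutant M1 (edgeR adjusted p = 0.954).

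Dsp encodes desmoplakin, the protein that ties the desmosomal plaque to the intermediate filaments. Its level was 1063 CPM in control M1, 777.3 in M2, 1275 in F1 and 773.4 in F2. In the mice labelled Tbx5 mutant it was 814.5 CPM in F1, 505.7 in F2, 514.2 in F3, 995.9 in M1, 334.5 in M2 and 433.7 in M3. Mutant F1 and M1 lay among the control mice, and the other 4 mutant mice were below every control mouse. The mean was 972 ± 243 CPM (SD, n = 4) against 600 ± 252 CPM (SD, n = 6), a log2 fold change of -0.70 with a standard error of 0.26, and it missed the threshold (edgeR adjusted p = 0.0568, exact permutation p = 0.0571). Without mutant F1 the edgeR adjusted p was 0.0356, and without mutant M1 it was 0.00821. With any other mouse left out it stayed above 0.05, from 0.0572 (control F2) to 0.181 (control F1). With the trend of each library on transcript length removed, the log2 fold change of Dsp was -0.45 (edgeR adjusted p = 0.149). Dsp shares 499 exon bases with Gm10129 on the opposite strand.

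The cadherin and the catenin of the adherens junction moved in opposite directions. Cdh2 encodes N-cadherin, the classical cadherin that holds cardiomyocytes together and that fibroblasts also make. It measured 143.6 CPM in control M1, 149.7 in M2, 184.1 in F1 and 169.7 in F2, and between 204.5 and 242.9 CPM with a median of 223.3 CPM in the mice labelled Tbx5 mutant. Every mutant mouse was above every control mouse. The mean rose from 162 ± 18.6 CPM (SD, n = 4) to 224 ± 14.5 CPM (SD, n = 6), with a log2 fold change of 0.47 and a standard error of 0.094 (edgeR adjusted p = 0.0021, exact permutation p = 0.00952). At 1.39-fold, Cdh2 stayed under the fold threshold and was not called.

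Ctnna3 encodes alpha-T-catenin, which links cadherin complexes to actin and also binds plakophilin 2 in the area composita. Its level was 165.0 CPM in control M1, 152.7 in M2, 167.0 in F1 and 174.5 in F2. Mutant mice ran from 68.44 CPM through a median of 93.73 to 123.1 CPM, with no overlap between the groups. The mean fell from 165 ± 9.03 CPM (SD, n = 4) to 96.7 ± 20.9 CPM (SD, n = 6), 1.70-fold lower, with a log2 fold change of -0.77 and a standard error of 0.14 (edgeR adjusted p = 0.00103, exact permutation p = 0.00952). Ctnna3 spans chr10:63430098-65003667 on the forward strand (GRCm38), and Lrrtm3 lies within its span on the other strand without sharing an exon base.

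The tight junction scaffold and the Xin proteins complete the set. Tjp1 encodes ZO-1, which sits beside gap junctions and adherens junctions at the disc. It measured 200.3 CPM in control M1, 203.0 in M2, 237.5 in F1 and 205.5 in F2, against 140.5 to 197.8 CPM with a median of 158.8 CPM in the mice labelled Tbx5 mutant. The groups did not overlap, although the highest mutant mouse lay just under the lowest control mouse. The mean was 212 ± 17.4 CPM (SD, n = 4) against 163 ± 21.5 CPM (SD, n = 6), 1.30-fold lower and so not called, with a log2 fold change of -0.38 and a standard error of 0.10 (edgeR adjusted p = 0.0144, exact permutation p = 0.00952). With the length trend removed it was -0.19 (edgeR adjusted p = 0.122), and without control F1 the edgeR adjusted p was 0.0552.

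Xirp1 and Xirp2 encode actin-binding Xin repeat proteins of the intercalated disc. Xirp1 measured 125.0 CPM in control M1, 136.7 in M2, 142.7 in F1 and 152.3 in F2. In the mice labelled Tbx5 mutant it was 203.9 CPM in F1, 318.9 in F2, 273.6 in F3, 265.4 in M1, 493.4 in M2 and 229.3 in M3. All mutant mice were above all control mice, and mutant M2 was the highest by a wide margin. The mean rose from 139 ± 11.4 CPM (SD, n = 4) to 297 ± 104 CPM (SD, n = 6), a fold of 2.14, with a log2 fold change of 1.10 and a standard error of 0.20 (edgeR adjusted p = 0.0013, exact permutation p = 0.00952).

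Xirp2 measured 620.7 CPM in control M1, 547.3 in M2, 853.7 in F1 and 500.4 in F2. In the mice labelled Tbx5 mutant it was 657.2 CPM in F1, 239.3 in F2, 220.5 in F3, 536.4 in M1, 228.2 in M2 and 239.1 in M3. As for Dsp, mutant F1 and M1 lay among the control mice, and the other 4 mutant mice were far below them. The mean was 631 ± 157 CPM (SD, n = 4) against 353 ± 192 CPM (SD, n = 6), a log2 fold change of -0.83 with a standard error of 0.31, which missed the threshold (edgeR adjusted p = 0.0531, exact permutation p = 0.0762). Without mutant F1 the edgeR adjusted p was 0.00648 and without mutant M1 it was 0.0225. With any other mouse left out it stayed above 0.05, from 0.0581 (control F2) to 0.168 (control F1). With the length trend removed the log2 fold change of Xirp2 was -0.54 (edgeR adjusted p = 0.144). Xirp2 shares 168 exon bases with Gm13601 on the opposite strand.

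**Figure D2:**
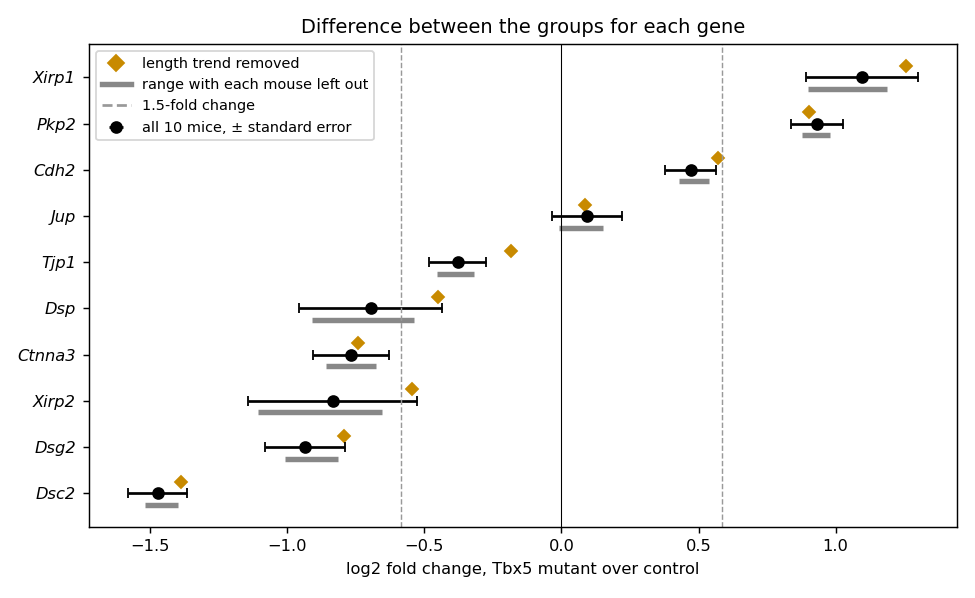
The log2 fold change of each gene, mice labelled Tbx5 mutant over mice labelled control (horizontal axis), with its standard error (black), the range when each mouse was left out in turn (grey bar) and the value with the length trend of each library removed (gold diamond). Dsc2, Dsg2 and Ctnna3 stay beyond the dashed 1.5-fold line on the low side and Pkp2 and Xirp1 on the high side, whereas Dsp and Xirp2 move inside it when the length trend is removed.

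Dsp and Xirp2, at 9592 and 11979 bases the longest transcripts of the set, were high in the same libraries as titin. Ttn encodes the giant filament protein of the sarcomere. Its level was 91308 CPM in control M1, 68431 in M2, 106620 in F1 and 63169 in F2, and among the mice labelled Tbx5 mutant it was 90195 in F1, 42792 in F2, 38649 in F3, 81719 in M1, 27143 in M2 and 31127 CPM in M3. Mutant F1 and M1 were thus within the control range for Ttn, as they were for Dsp and Xirp2. The same mice were low for Dsc2, however, in which no mutant mouse exceeded 80.28 CPM. In these libraries the Spearman correlation of the deviation from the gene mean with transcript length was 0.00444 in mutant F1 and 0.0422 in mutant M1. It was between 0.133 and 0.341 in the control libraries and between -0.388 and -0.166 in the other 4 mutant libraries. The part of this length trend in the values of Dsp and Xirp2 was tested only by removing it, as given above for each gene.

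**Figure D3:**
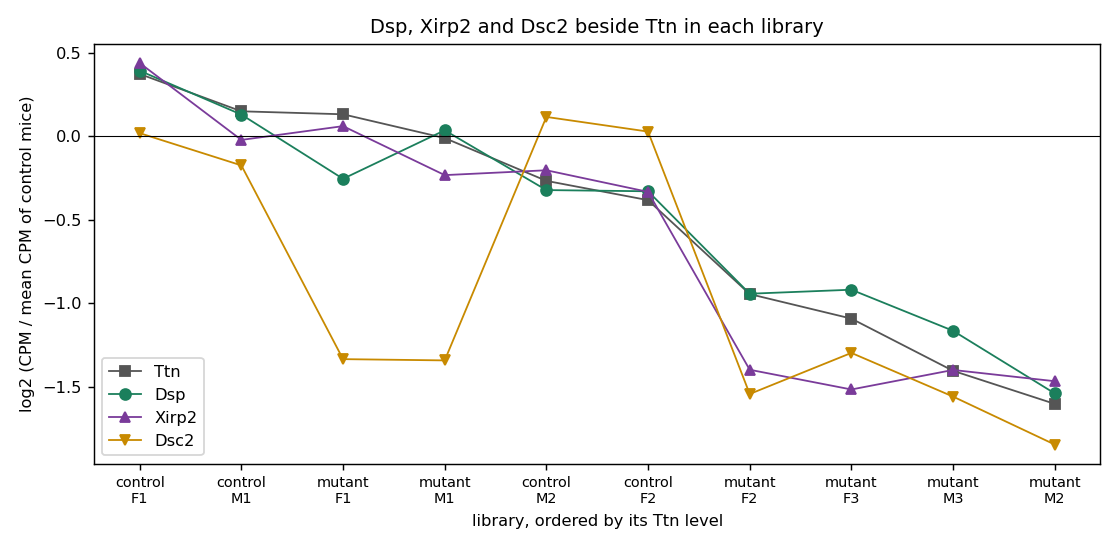
Levels of Ttn, Dsp, Xirp2 and Dsc2 in each of the 10 libraries, as the log2 ratio to the mean of the mice labelled control (vertical axis), with libraries ordered by Ttn. Dsp and Xirp2 run close to Ttn through mutant F1 and M1, which stand among the control libraries, whereas Dsc2 is lower in every mutant library.

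The genes were then ranked within each group by CPM per kb of the longest coding transcript. Dsp had the highest control mean, at 101 ± 25.4 (SD, n = 4), and its range did not overlap that of Jup at 53.3 ± 5.76. From Jup down through Xirp2 (52.6 ± 13.1), Ctnna3 (44.8 ± 2.45), Dsc2 (42.6 ± 3.51), Pkp2 (39.6 ± 2.57), Dsg2 (37.2 ± 5.85), Cdh2 (33.4 ± 3.84) and Tjp1 (30.0 ± 2.47), each gene overlapped the next. Xirp1 was the lowest at 23.8 ± 1.95, below Tjp1 without overlap.

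The order of these length-scaled levels differed in the mice labelled Tbx5 mutant. Pkp2 came first at 75.6 ± 7.68 CPM per kb (SD, n = 6), ahead of Dsp at 62.5 ± 26.3, Jup at 56.9 ± 10.2 and Xirp1 at 50.9 ± 17.8. Cdh2 followed at 46.3 ± 2.99, then Xirp2 at 29.5 ± 16.1, Ctnna3 at 26.3 ± 5.68, Tjp1 at 23.1 ± 3.05, Dsg2 at 19.4 ± 3.98 and Dsc2 at 15.3 ± 2.1. The ranges of every neighboring pair in this order overlapped, and no pair kept the order of its means in all 6 mice. Within a mouse, Dsp was above Jup in 2 of 6 mice, and so was Xirp1 above Cdh2. The other pairs kept the order of their means in 3 to 5 of 6 mice.

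**Figure D4:**
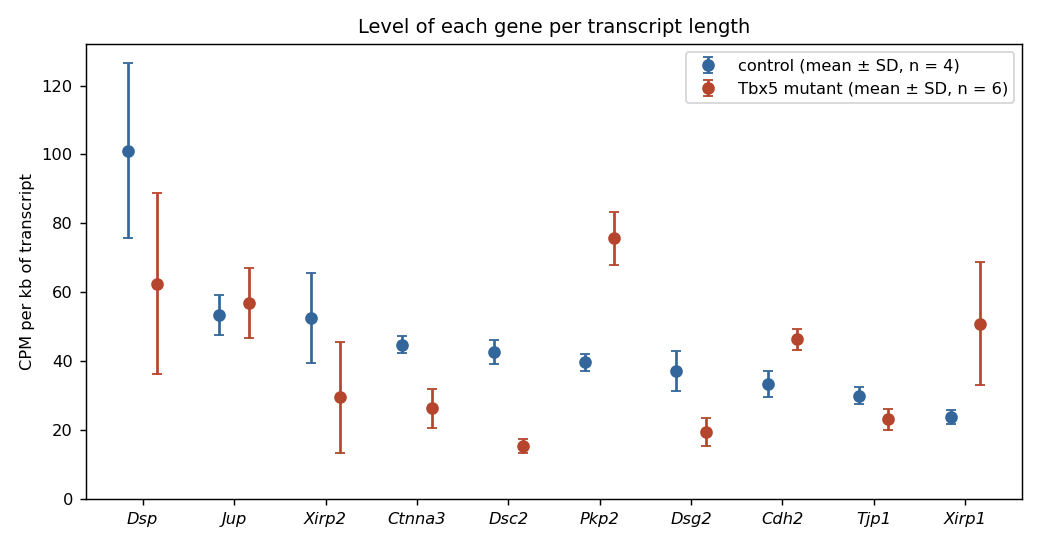
Mean level of each gene in CPM per kb of transcript (vertical axis, from 0) with the SD, for mice labelled control (blue, n = 4) and Tbx5 mutant (red, n = 6), in the order of the control means. Dsc2 is among the middle genes in the control mice and last in the mutant mice, while Pkp2 comes first in the mutant mice.

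Because they are taken within a library, ratios of these length-scaled levels do not depend on the library size. Dividing by length does not remove the trend of each library on transcript length, and no ratio was taken with that trend removed. The paired genes differed in length, with 2918 bases for Pkp2 against 4630 for Dsc2 and 9592 for Dsp. Xirp1 and Xirp2 have 5839 and 11979 bases, Cdh2 and Ctnna3 have 4843 and 3682, and Dsg2 has 5766. The part of this trend in the ratios was not tested. The pairs were chosen after their values were seen and are given without a test. The ratio of Pkp2 to Dsc2 was 0.864 to 0.986 in control mice and 3.99 to 6.7 in mutant mice. Plakophilin 2 and desmocollin 2 transcripts thus went from near equal levels to several-fold apart in every mutant mouse. The ratio of Cdh2 to Ctnna3 was 0.662 to 0.838 against 1.38 to 2.63, and that of Pkp2 to Dsp was 0.294 to 0.531 against 0.801 to 2.28. The ratio of Xirp1 to Xirp2 was 0.343 to 0.624 against 0.637 to 4.44, with mutant F1 only just above the highest control mouse. In contrast, the ratio of Dsg2 to Dsc2 overlapped, at 0.776 to 0.995 against 0.95 to 1.6, both cadherins being lower in the mutant mice.

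The deposited files hold no binding data, but sequence upstream of some of these genes could be read for the motif of T-box factors. The RefSeq promoter table (GRCm38.p6) held 5 of the 10 genes, namely Dsp, Jup, Ctnna3, Xirp2 and Tjp1. The letters AGGTGT were searched on both strands in the 250 bases before the start, and 11.8% of the 32851 promoters in the table held them. Dsp and Jup held 1 match each, at positions -219 and -19 from the start, and the most upstream Ctnna3 start held none. Of 2 further Ctnna3 starts, the one most downstream held 1 match, at position -146. The windows of Xirp2 and of a Tjp1 start inside the gene held none, and the GATA letters AGATAA, present in 9.99% of promoters, were found in none of the 7 windows. The windows of Ctnna3, Dsp and Jup are shown, the first as the promoter of a called gene and the others as those that hold the letters at their start. Capitals mark the T-box letters. Ctnna3 is chr10:63429848-63430097 on the forward strand, Dsp is chr13:38151044-38151293 on the forward strand and Jup is chr11:100397791-100398040 on the reverse strand, all read 5′ to 3′ toward the gene.
Ctnna3: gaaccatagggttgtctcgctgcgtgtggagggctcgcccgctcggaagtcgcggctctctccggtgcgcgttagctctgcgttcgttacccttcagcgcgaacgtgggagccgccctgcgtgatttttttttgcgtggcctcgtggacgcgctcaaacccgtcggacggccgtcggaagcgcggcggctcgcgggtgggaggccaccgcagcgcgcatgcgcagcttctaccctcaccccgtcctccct
Dsp: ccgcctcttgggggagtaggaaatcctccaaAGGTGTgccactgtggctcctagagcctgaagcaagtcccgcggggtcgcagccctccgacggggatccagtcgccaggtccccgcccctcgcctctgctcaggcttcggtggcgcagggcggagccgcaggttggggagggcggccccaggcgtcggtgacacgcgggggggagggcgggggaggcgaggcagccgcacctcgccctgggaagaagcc
Jup: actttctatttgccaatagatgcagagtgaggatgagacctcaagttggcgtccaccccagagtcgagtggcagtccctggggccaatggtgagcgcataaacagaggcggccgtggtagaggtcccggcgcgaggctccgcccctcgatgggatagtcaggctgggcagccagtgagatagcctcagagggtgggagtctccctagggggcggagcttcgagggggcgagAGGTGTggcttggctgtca
A match of these letters is a description of the sequence and not a site of binding.

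Other junction genes were taken from a list of 48 genes of desmosomes, cadherin and catenin complexes, actin linkers and membrane scaffolds. Of these, 38 were tested, 2 were called lower and 4 were called higher, beside 7.16% and 8.50% of all tested genes. With no fold threshold, 7 were lower and 10 higher, beside 15.0% and 16.3% of all tested genes. Their median log2 fold change was -0.03. The 10 genes not tested had few or no reads and included the skin-type desmosomal genes Dsc1, Dsc3, Pkp1 and Pkp3, while Cdh15 had no read in any library.

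Des, the desmin filament that desmosomes anchor, had the largest rise on this list, from 957 ± 109 CPM (SD, n = 4) to 1910 ± 202 CPM (SD, n = 6), a log2 fold change of 0.99 with a standard error of 0.12 (edgeR adjusted p = 6.95e-05). Pkp4, an armadillo relative of plakophilin 2, fell from 317 ± 17.0 to 209 ± 17.3 CPM (log2 fold change -0.60, edgeR adjusted p = 0.000217). Plakophilin 2 and desmin transcripts were thus higher in the same mice in which Pkp4 transcripts were lower. Among the catenins, Ctnna1, which encodes the alpha-E-catenin that shares the role of alpha-T-catenin, fell from 965 ± 97.1 to 625 ± 74.7 CPM (log2 fold change -0.63, edgeR adjusted p = 0.000969). Ctnnb1, the beta-catenin that binds the tail of N-cadherin, measured 696 ± 50.7 against 789 ± 42.5 CPM, and missed the threshold (log2 fold change 0.18, edgeR adjusted p = 0.157).

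Of the actin linkers, Vasp, a promoter of actin filament growth, rose from 27.3 ± 4.38 to 47.5 ± 5.87 CPM (log2 fold change 0.80, edgeR adjusted p = 0.000388). Actn1, a non-muscle alpha-actinin, rose from 44.9 ± 11.4 to 68.5 ± 12.0 CPM (log2 fold change 0.61, edgeR adjusted p = 0.0131). Vcl, the vinculin that joins catenins to actin, rose from 223 ± 14.8 to 287 ± 33.3 CPM without passing the fold threshold (log2 fold change 0.36, edgeR adjusted p = 0.0175). The groups overlapped for Actn1 and Vcl but not for Vasp. Cdh11, a cadherin of fibroblasts and other mesenchymal cells, rose from a mean of 60.3 to 91.5 CPM (log2 fold change 0.60, standard error 0.16, edgeR adjusted p = 0.011). The endothelial cadherin Cdh5 measured 126 ± 14.7 against 135 ± 17.3 CPM (log2 fold change 0.098, edgeR adjusted p = 0.533). Both falls lay near the fold threshold: the count called lower was 0 without control F1 or without mutant F2, 1 without control F2 or without mutant M3, and 1 with the length trend removed. The count called higher was 2 without control F2.

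**Figure D5:**
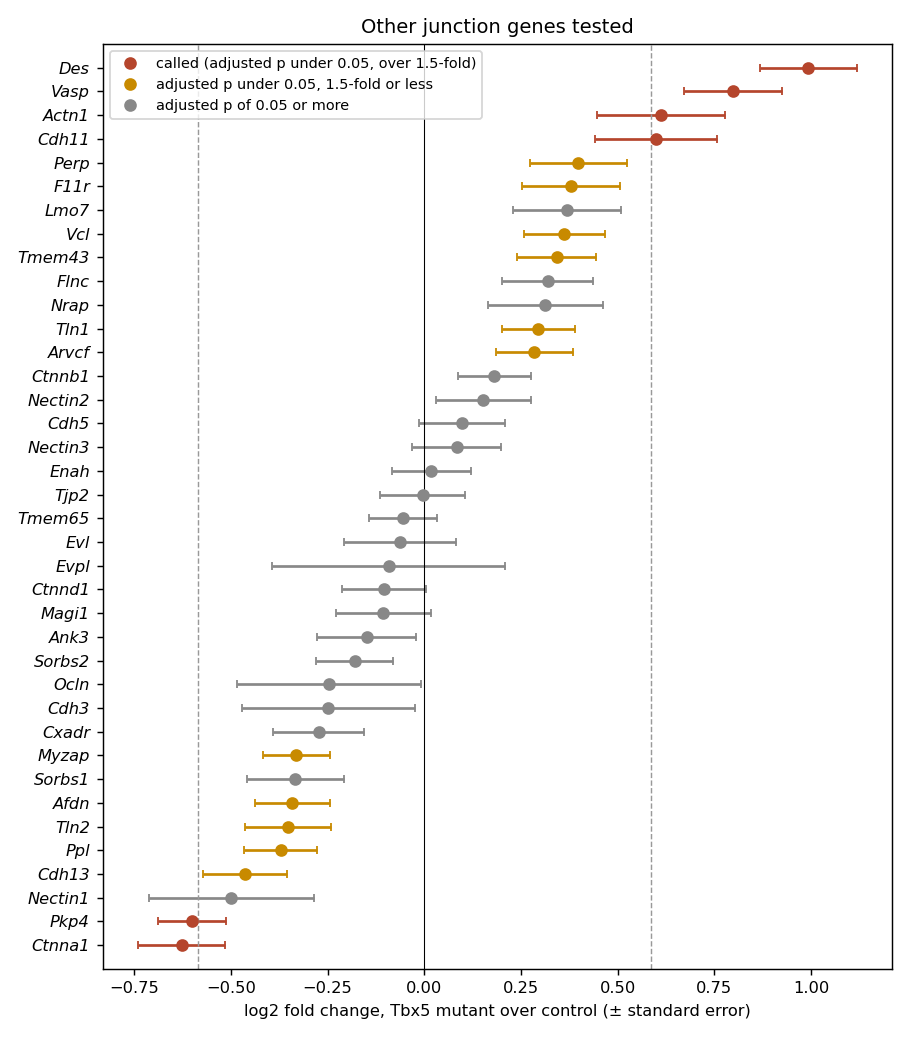
The log2 fold change with its standard error (horizontal axis) of the 38 other junction genes tested, ordered by size, mice labelled Tbx5 mutant over mice labelled control. Des, Vasp, Actn1 and Cdh11 (red, high side) and Pkp4 and Ctnna1 (red, low side) passed the p and the 1.5-fold threshold (dashed), and most of the list lies between the dashed lines.

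Markers of other cell types differed between the groups beside the junction genes. All 10 cardiomyocyte markers were present, including the atrial genes Myl4, Myl7 and Nppa, and of these 10 genes 4 were called lower and 3 higher. Beside each count of markers in this paragraph stand the shares of all tested genes, 7.16% called lower and 8.50% called higher. The cardiomyocyte markers called lower were Myl7, Nppa, Ryr2 and Sln, and those called higher were Tnnt2, Actc1 and Mybpc3. The summed level of the 10 was 78500 to 93100 CPM in control mice and 67100 to 80800 CPM in mutant mice, with overlap. Nppa had a mean of 26800 against 17100 CPM, while Myh6 had 24100 against 25800 CPM. Summed fibroblast markers were 3870 to 5210 against 7070 to 10300 CPM with 4 of 8 called higher. These 4 were Col1a1, Col1a2, Col3a1 and Postn, while Pdgfra fell (log2 fold change -0.40, edgeR adjusted p = 0.0152) and Dcn measured 1890 ± 139 against 1870 ± 213 CPM. Leukocyte markers were 335 to 543 against 556 to 811 CPM with 5 of 6 tested called higher. Smooth muscle and pericyte markers were 283 to 339 against 353 to 754 CPM with 1 of 6 called higher. That gene was Acta2, with a mean of 72.4 against 287 CPM (log2 fold change 1.98, standard error 0.31), while Rgs5 measured 95.0 ± 16.9 against 81.3 ± 10.6 CPM and Myh11 9.93 ± 1.42 against 11.5 ± 5.06 CPM. The fibroblast, leukocyte and smooth muscle sums did not overlap between the groups, although the fibroblast and smooth muscle lists each held log2 fold changes of both signs. Endothelial markers, at 1180 to 1630 against 1360 to 1690 CPM, and epicardial markers, at 387 to 406 against 239 to 469 CPM, overlapped with none of 8 called. The neuronal gene Tubb3 was called higher, at 0.814 ± 0.524 against 3.07 ± 1.63 CPM with overlap between the groups (log2 fold change 1.93, edgeR adjusted p = 0.0121). The 4 adipocyte markers, at 0.47 to 4.14 against 0 to 20.8 CPM, were too low to test. The part of these cell types in the levels of Cdh2, Cdh11 and the other junction genes was not tested.

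Whether the difference between groups depended on sex was tested as an interaction of genotype and labelled sex. None of the 10 genes had an edgeR adjusted p under 0.05, beside 0.290% of all tested genes, and 1 had an unadjusted p under 0.05, beside 10.4% of all tested genes. That gene was Pkp2, whose log2 fold change was higher in mice labelled male by 0.35 (unadjusted p = 0.0394 and adjusted p = 0.449 in edgeR). With the sex labels of the control mice exchanged, which is the sex that Xist and Ddx3y give, the value for Pkp2 was 0.15 (unadjusted p = 0.34 in edgeR). The adjusted count of the 10 genes was then also 0, beside 1 of the 13084 tested genes. The lowest unadjusted p of the 10 genes in edgeR was 0.202, for Cdh2, where 1189 of all tested genes were under 0.05. If Xist and Ddx3y give the true sex, the term with the labels as given adds the sex differences of both groups together. It then does not test whether the difference between groups depends on sex. No other tool was run on this term.

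Finally, the genes nearest in pattern to Dsc2 and Xirp1, the largest fall and the largest rise of the set, were found by the root mean square distance of log2 CPM over the 10 libraries after centring each gene. Nearest to Dsc2 were Fam49a at 0.091, Gm9899 at 0.14 and Camk1d at 0.156, where the median distance of all tested genes was 0.768. The log2 fold changes of these genes were -1.34, -1.43 and -1.66. Nearest to Xirp1 were Sccpdh at 0.146, Cbr2 at 0.179 and Slc38a2 at 0.182, beside a median of 0.645, with log2 fold changes of 1.05, 0.94 and 0.88. The distance includes the difference between the groups, so similar log2 fold changes follow from how these genes were found.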

How the data were processed

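RNA of the right atria of 10 mice was measured by single-end sequencing. The authors deposited raw counts of reads per gene, which are whole numbers without normalization, and a signal per gene and library, those counts divided by DESeq2 size factors. The submitters' processing notes name FastQC, TopHat2 2.0.11, featureCounts and the build mm10. The deposited log2 fold change, linear fold ratio, Wald score and p-value columns are the authors' own comparison and were not used. The protocols name both an mRNA kit and ribosomal RNA depletion of total RNA, so the selection behind these libraries is unclear, and the strand setting of the counting is not given in the sources used here.

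Counts were filtered with filterByExpr, scaled by TMM and compared between 4 and 6 mice with the quasi-likelihood test of edgeR 4.0.16 in R 4.3.3 (prior count 0.125), with Benjamini-Hochberg adjustment over all 13084 genes tested. Standard errors were derived from the F statistics. Single values were compared by exact permutation, two-sided, with each of the 210 splits (scipy 1.17.1). The code was tested on simulated data. Lengths are those of the longest coding GENCODE M21 transcript, and length trends were removed as lowess offsets (span 0.4). Nothing says that the mice of a group were of separate litters, and the p-values measure the spread between these mice. Libraries of a group differed by more than sampling noise in all 21 pairs (lowest chi-square per degree of freedom 3.78).

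The 10 genes and all lists were chosen with earlier results of these data known. Genes named outside the set included Tbx5, the called junction genes, and Ctnnb1, Ctnna1, Vcl and Cdh5 in any case. They also included the 3 nearest genes to the largest fall and rise. Ttn and the single markers of cell types were named after their values were seen. Alternatives were DESeq2 1.42.0, limma 3.58.1 with a trend on log2 CPM, upper-quartile scaling, counts without Rn45s, no filter, a mean count of at least 50, sex as a covariate as labelled or exchanged, a replicate block, length trends removed with and without that block, each labelled sex alone, each mouse left out, an adjusted p under 0.01, and a fold over 2 or none. The summed level of the glial and neuronal marker list is not reported here.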

Additional observations from a re-analysis of the deposited data

Results flagged for a closer look

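For each of the 10 genes, each group was searched for 1 mouse that stood far from the others, relative to the range of the group. Of 20 groups of values, 2 held such a mouse, and chance gives about 1 in 20. Dsg2 in control M2 was 264.7 CPM, where the nearest control mouse was at 204.3 CPM. Tjp1 in control F1 was 237.5 CPM, where the nearest control mouse was at 205.5 CPM.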

How the results depend on the processing

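Counts are given in place of 3 adhesion genes called lower, 2 called higher, and 2 and 4 other junction genes. Adhesion genes called lower became 5 with limma, with no filter and with the replicate block, and 1 at a fold over 2, where 1 was called higher. Other junction genes called lower became 1 with upper-quartile scaling, with the replicate block and with the length trend removed, and 0 with the length trend removed together with the replicate block, in mice labelled male alone and at a fold over 2. They were 7 with no fold threshold. Those called higher became 2 in mice labelled male and at an adjusted p under 0.01, 10 with no fold threshold and 0 at a fold over 2.

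In place of 2049 genes called in the whole table (937 lower, 1112 higher), 1284 were called (653 higher) at a mean count of at least 50, 4096 (1967 lower, 2129 higher) with no fold threshold and 906 (367 lower, 539 higher) at a fold over 2. With each mouse left out, the count ran from 1807 to 2205 (824 to 1076 lower, 983 to 1169 higher). Adhesion genes called lower ran from 3 to 5 and called higher stayed at 2, other junction genes ran from 0 to 2 lower and from 2 to 4 higher, and the count of adhesion genes with an exact permutation p under 0.05 ran from 7 to 9. The log2 fold change of Jup ran from -0.0096 (without mutant M1) to 0.15 (without control F2). The cause of these changes was not tested.

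Over all alternatives Dsc2, Dsg2, Pkp2 and Xirp1 kept their direction and an adjusted p under 0.05. Ctnna3 missed it in mice labelled male alone (adjusted p = 0.0552) and Cdh2 in mice labelled female alone (adjusted p = 0.0615). By Xist and Ddx3y, the control and mutant mice in each fit of a single labelled sex were of unlike sex. Genotype and sex cannot be told apart in those fits, including the counts given above for mice labelled male. The labels do not say whether mice of the same replicate number were paired. Deviations of the 4 same-numbered pairs correlated at -0.0328 to 0.0431, with a mean of 0.00884 beside -0.00193 for other pairs. So few pairs cannot exclude a pairing. In the replicate block, mutant F3 and M3 have no control of the same number and add nothing to the difference between groups. With the replicate block the adjusted p was 0.0235 for Dsp and 0.018 for Xirp2, with limma 0.0397 and 0.0269, and with DESeq2 0.12 and 0.102. The adhesion genes had at least 246 reads in every library, and the part of depth in their results was not tested.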
